A study of Mus musculus with 12 samples.

Results

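The genes described here encode the inducible subunits of the immunoproteasome and the constitutive subunits they replace, in mouse Myc-CaP prostate cancer cells. They were chosen by symbol. Psmb8, Psmb9 and Psmb10 encode the 3 inducible catalytic subunits, Psmb5, Psmb6 and Psmb7 encode their constitutive counterparts, and Psme1 and Psme2 encode the PA28 alpha and beta activator. All 8 genes, of 55216 in the count table, passed the filter on low counts that left 13177 genes for testing.

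The study asked how the platinum drug oxaliplatin (Oxali) and interferon gamma (IFNγ) change antigen processing in tumor cells. RNA was sequenced after 48 h from 6 groups of 2 libraries each: untreated cells (Ctrl), cells given 200 pg (IFN200) or 2000 pg (IFN2000) of IFNγ, cells given 2 μM Oxali, and cells given Oxali with either IFNγ dose (Combo200 and Combo2000). The labels give the IFNγ doses without a volume, and the study describes them as amounts per mL. Myc-CaP is an established line from an FVB/NJ male mouse carrying a human MYC transgene under the prostate-specific probasin promoter, so every group shares that transgene and all values come from a single line. Nothing states that the libraries of a group came from separate cultures, so the p-values measure the spread between these libraries, which may be technical.

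Groups were taken from the sample titles. A second label, the agent, disagrees with the title in the 6 libraries of the single treatments, so that the names of IFN200, IFN2000 and Oxali would change places if the agent label were right. As titled, the Oxali libraries differed in 241 genes from Combo200 and in 574 from Combo2000, whereas IFN200 differed in 9217 genes from Combo200 and IFN2000 in 9522 from Combo2000. Against Ctrl the libraries titled Oxali differed in 8911 genes, those titled IFN2000 in 2221 and those titled IFN200 in 15. The libraries titled Oxali thus differed from each combination in fewer genes than the libraries titled with its IFNγ dose did, and the titles were used throughout. The 12 libraries held 18749975 to 25931516 counts. The keratin gene Krt8 stood at 18.6 to 23.9 CPM (library-scaled read counts, with TMM scaling), whereas the epithelial gene Epcam had 0 counts in all 12 libraries and Krt18 and Cdh1 had at most 6. Replicate 2 of IFN2000 stood apart in 8 T cell markers, with 172 summed counts and 7 markers detected. The other libraries without Oxali held 3 to 13 summed counts and those with Oxali 26 to 43. The tests that involve IFN2000 are therefore also given without that library. Replicate 1 of IFN200 stood apart in 5 heart muscle markers, with 151 summed counts and all 5 detected, against 15 to 26 in the other libraries without Oxali and 70 to 129 in those with Oxali. Fibroblast markers summed to 485 to 635 counts in each library with Oxali and to 223 to 375 in each library without it. Pdgfra gave nearly all of them (221 to 632 counts a library), while Col1a1 had at most 16, Col1a2 and Dcn at most 1 and Lum 0. Tnnt2 made up 125 of the 129 heart muscle marker counts in Oxali replicate 1. In bulk RNA a lower value from fewer expressing cells and from less RNA per cell cannot be told apart.

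The proteasome degrades intracellular proteins in a barrel, the 20S core, in which a few beta subunits carry the proteolytic sites. Interferons induce alternative catalytic subunits that are built into new particles in place of the constitutive ones and shift the cleavage pattern toward peptides that fit MHC class I. PA28 caps the ends of the barrel and opens it, and these genes are known as part of the antigen processing programme that tumor cells can lower.

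In the GRCm38 build, Psmb8 lies at chr17:34197721-34201454 and Psmb9 at chr17:34181987-34187764, on opposite strands on either side of Tap1, which encodes a subunit of the peptide transporter. Psmb10 lies at chr8:105935735-105938444, Psme1 at chr14:55578123-55581529 and Psme2 at chr14:55587441-55591113. The constitutive genes lie at chr14:54614119-54618022 (Psmb5), chr11:70525367-70527858 (Psmb6) and chr2:38588036-38644087 (Psmb7). All 8 are protein-coding genes, and the values are read counts over their exons. The exons of Psmb9 share 212 bases with Tap1 on the opposite strand and those of Psmb7 share 405 bases with Nek6, and the strand setting of the counting is not given in the sources used here. Psmb5 has a near copy, the processed pseudogene Gm3375, which matched 98.9% of 796 aligned bases, so reads of the pair are hard to separate. Gm3375 held 396 to 647 counts a library, 0.852 to 1.12 times the count of Psmb5 itself.

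The windows around 4 start sites are shown, because these windows differ in whether the letters of an interferon-type site stand in them. Each runs from 250 bases before to 50 bases after a RefSeq start site in GRCm38.p6, in the direction of the gene, and capitals mark a match. They are chr17:34197945-34198244 on the plus strand for Psmb8, chr17:34187281-34187580 on the minus strand for Psmb9, chr14:55578244-55578543 on the plus strand for Psme1 and chr14:54617946-54618245 on the minus strand for Psmb5.
Psmb8: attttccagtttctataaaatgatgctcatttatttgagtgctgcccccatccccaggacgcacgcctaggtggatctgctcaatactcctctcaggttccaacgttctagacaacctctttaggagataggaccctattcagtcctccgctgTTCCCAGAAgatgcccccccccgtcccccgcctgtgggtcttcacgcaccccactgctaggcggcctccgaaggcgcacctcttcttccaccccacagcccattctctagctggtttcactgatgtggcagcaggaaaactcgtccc
Psmb9: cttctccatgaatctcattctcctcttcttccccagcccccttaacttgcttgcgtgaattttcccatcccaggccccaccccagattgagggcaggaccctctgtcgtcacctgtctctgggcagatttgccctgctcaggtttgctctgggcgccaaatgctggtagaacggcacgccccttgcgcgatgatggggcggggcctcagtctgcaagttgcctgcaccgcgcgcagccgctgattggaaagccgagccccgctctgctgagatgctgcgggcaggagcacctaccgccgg
Psme1: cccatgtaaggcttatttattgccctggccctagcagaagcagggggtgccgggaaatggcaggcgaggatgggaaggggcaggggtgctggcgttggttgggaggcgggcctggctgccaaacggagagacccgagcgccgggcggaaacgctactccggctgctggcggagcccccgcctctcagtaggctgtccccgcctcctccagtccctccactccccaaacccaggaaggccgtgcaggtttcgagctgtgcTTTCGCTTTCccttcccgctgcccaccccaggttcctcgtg
Psmb5: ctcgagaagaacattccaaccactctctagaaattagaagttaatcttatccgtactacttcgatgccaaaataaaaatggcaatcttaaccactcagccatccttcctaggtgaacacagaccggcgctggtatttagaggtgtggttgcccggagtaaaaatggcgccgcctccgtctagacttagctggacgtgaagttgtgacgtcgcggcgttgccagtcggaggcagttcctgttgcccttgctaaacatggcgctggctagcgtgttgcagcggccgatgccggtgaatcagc

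The Psmb8 window held 1 STAT-type site (TTC, any 3 bases, GAA), from 97 to 89 bases before the start. The Psme1 window held 1 interferon response element core (GAAA, any 2 bases, GAAA) on the minus strand, 9 to 18 bases past the start. These letters occurred, on either strand, in 8.29% and 3.43% of 32817 promoter windows of the same length. The windows of Psmb9, Psmb10, Psme2, Psmb5 and Psmb6 held neither site, nor a kappa B site (GGGA, any base, TTTCC, in 0.411% of windows) nor an antioxidant response element (TGAC, any 3 bases, GCA, in 3.04%). The absence says only that these letters are not in these windows. The windows of Psmb8, Psmb9 and Psme1 lie wholly inside the gene spans given above, so the bases before those spans were not searched. The window of Psmb5 reaches past its span, so the windows cover unlike regions.

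In untreated cells the 3 inducible subunits were far apart. Psmb8, which replaces the chymotrypsin-like subunit, had 4 counts in each Ctrl library, and Psmb9, which replaces the caspase-like subunit, had 7 and 4. Together the Ctrl libraries gave 0.212 CPM for Psmb8 (exact 95% Poisson interval 0.0916 to 0.418) and 0.292 CPM for Psmb9 (0.146 to 0.522), intervals that cover counting error only. Psmb10, which replaces the trypsin-like subunit, stood at 29.5 and 29.7 CPM, and Psme1 and Psme2 at 76.1 ± 1.43 and 102 ± 4.84 CPM (SD, n = 2). The constitutive genes stood at 24.5 ± 0.374 CPM (Psmb5), 95.4 ± 0.985 CPM (Psmb6) and 107 ± 2.95 CPM (Psmb7). Per kilobase of exon, the Ctrl means ran from 0.0629 CPM for Psmb8 and 0.0809 CPM for Psmb9 to 17.4 CPM for Psmb10 and 58.0 CPM for Psme2.

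**Figure D1:**
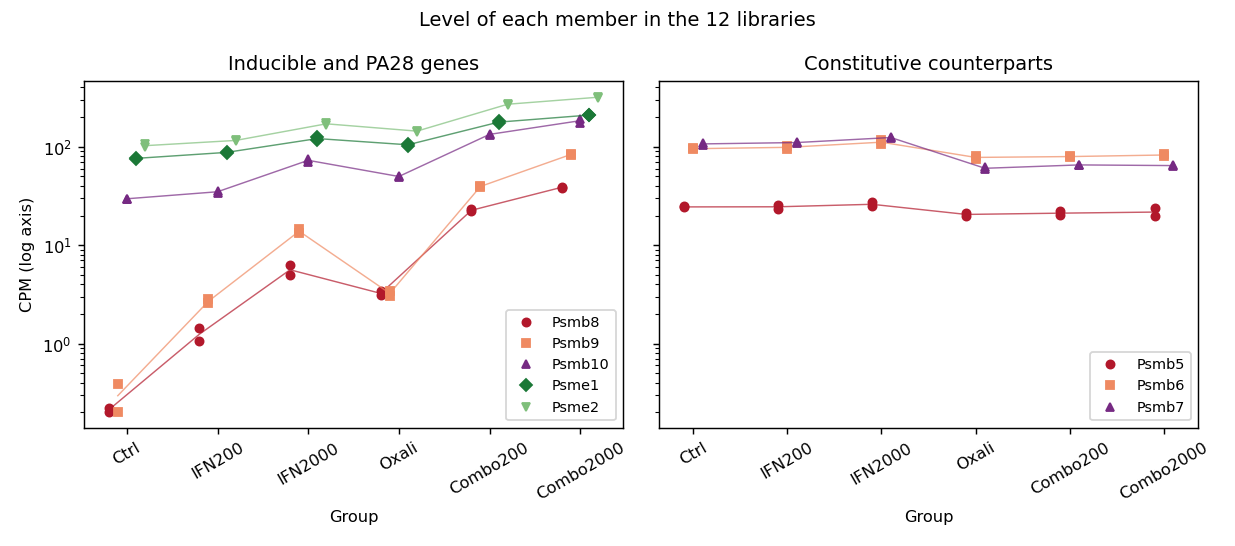
CPM of each gene (log axis) in the 12 libraries by group, with a point for each library and a line through the group means. Psmb8 and Psmb9 start below 1 CPM in Ctrl and reach 38.8 and 83.6 CPM on average in Combo2000. Psmb5, Psmb6 and Psmb7 change far less on this axis, with Psmb7 falling from 107 CPM in Ctrl to 60.4 CPM in Oxali.

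Oxali alone raised the 5 inducible and PA28 genes and lowered the 3 constitutive ones. Psmb8 rose from 0.223 and 0.203 CPM in Ctrl to 3.09 and 3.39 CPM, and Psmb9 from 0.389 and 0.203 CPM to 3.04 and 3.44 CPM. Psmb10 rose from 29.5 and 29.7 to 48.9 and 50.7 CPM. No Oxali library overlapped a Ctrl library for any of the 8 genes, but the share of all genes without overlap was not counted. The log2 fold changes were 3.90 (SE 0.33) for Psmb8, 3.45 (0.28) for Psmb9, 0.75 (0.062) for Psmb10, 0.46 (0.047) for Psme1 and 0.49 (0.043) for Psme2, with adjusted p of at most 4.5e-08 in the edgeR quasi-likelihood test. With a length and GC correction they were smaller, at 3.77, 3.28, 0.58, 0.27 and 0.40 in the same order, all still called. All 5 of these genes were called higher, where 34.8% of all genes tested were. Marker counts of fibroblasts (nearly all Pdgfra), heart muscle, T cells and macrophages (mostly Cd14) were also higher in both Oxali libraries than in both Ctrl libraries. T cell markers summed to 35 and 26 counts in Oxali (2 and 3 of 8 markers detected) against 6 and 8 in Ctrl. Macrophage markers summed to 351 and 354 counts against 235 and 303. The part of these marker counts in the changes above was not tested. From the counts alone the fold was 15.2 for Psmb8 (95% interval 7.52 to 36.0) and 11.1 for Psmb9 (6.01 to 22.7), with 8 and 11 counts in the Ctrl libraries together.

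The constitutive genes went the other way by unequal amounts. Psmb7, the trypsin-like subunit, stood at 61.6 and 59.1 CPM in Oxali against 109 and 105 CPM in Ctrl, a log2 change of -0.82 (SE 0.042, adjusted p = 1.25e-12). Psmb6, the caspase-like subunit, stood at 80.8 and 74.8 CPM against 94.7 and 96.1 CPM, a change of -0.29 (0.053, adjusted p = 6.21e-05). Psmb5, the chymotrypsin-like subunit, stood at 21.2 and 19.8 CPM against 24.2 and 24.7 CPM, a change of -0.25 (0.087, adjusted p = 0.0151). The 3 calls stand beside 32.8% of all genes called lower. With a length and GC correction the falls were larger, at -0.91 for Psmb7, -0.37 for Psmb6 and -0.36 for Psmb5. The Psmb5 call was lost with upper-quartile scaling (-0.20, adjusted p = 0.0508), without Ctrl replicate 2 (adjusted p = 0.0773) and without Oxali replicate 2 (adjusted p = 0.103), and it held with the reads of Gm3375 added (-0.32, adjusted p = 2.36e-04).

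IFNγ alone at 200 pg raised the 2 genes of the 8 that were nearly silent in Ctrl. Psmb8 stood at 1.43 and 1.06 CPM and Psmb9 at 2.56 and 2.83 CPM, above both Ctrl libraries, with log2 changes of 2.53 (SE 0.41, adjusted p = 0.01002) and 3.18 (0.30, adjusted p = 2.07e-05). These were 2 of the 8 genes, where 0.114% of all genes were called higher and 0% lower. Psmb10 at 34.2 and 35.6 CPM, Psme1 at 88.9 and 86.1 CPM and Psme2 at 114 and 118 CPM also lay above their Ctrl libraries, with log2 changes of 0.24, 0.20 and 0.18 and adjusted p of 0.349, 0.194 and 0.232. Psme1 was called with no filter on low counts (adjusted p = 0.0213) and with a length and GC correction (0.0409). The constitutive genes changed by 0.0031 to 0.047. The Psmb8 call rested on single libraries: its adjusted p was 0.281 without Ctrl replicate 1, 0.297 without Ctrl replicate 2 and 0.206 without IFN200 replicate 1, the library with heart muscle marker counts, at log2 changes of 2.59, 2.46 and 2.29.

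At 2000 pg all 5 inducible and PA28 genes were higher than in Ctrl. Psmb8 stood at 6.30 and 4.95 CPM, a log2 change of 4.70 (SE 0.28). Psmb9 stood at 14.6 and 13.2 CPM, a change of 5.55 (0.20). Psmb10 stood at 75.0 and 70.4 CPM, a change of 1.297 (0.059). Psme1 at 126 and 116 CPM and Psme2 at 175 and 167 CPM changed by 0.67 (0.047) and 0.74 (0.043), and the adjusted p of the 5 genes was at most 5.41e-09. Without replicate 2, the library with T cell marker counts, the log2 changes were 4.51, 5.47, 1.25, 0.61 and 0.71 in the order given here, and all 5 were still called.

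Unlike under Oxali, Psmb6 and Psmb7 were slightly higher with 2000 pg of IFNγ. Psmb7 stood at 125 and 123 CPM, a log2 change of 0.22 (SE 0.039, adjusted p = 8.57e-04), and Psmb6 at 116 and 106 CPM, a change of 0.22 (0.051, adjusted p = 0.00594). Psmb5, at 27.2 and 24.8 CPM, changed by 0.088 (adjusted p = 0.527). The 7 genes called higher and 0 called lower stand beside 8.39% and 8.47% of all genes. The Psmb6 call was lost without IFN2000 replicate 2 (0.15, adjusted p = 0.0842) and without Ctrl replicate 1 (0.22, adjusted p = 0.0620). In the 2 IFN2000 libraries the change of a gene against Ctrl also moved with exon length (Spearman's rho across 13043 genes of -0.30 and -0.16, genes not being independent replicates), and with a length and GC correction the changes were 0.16 for Psmb6 and 0.17 for Psmb7, both still called. With that correction and a replicate block together Psmb6 was not called (0.17, adjusted p = 0.0567).

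Raising IFNγ from 200 to 2000 pg gave log2 changes of 2.17 (SE 0.18) for Psmb8, 2.36 (0.11) for Psmb9, 1.06 (0.056) for Psmb10, 0.47 (0.045) for Psme1 and 0.56 (0.042) for Psme2. Psmb6 and Psmb7 each changed by 0.17, with adjusted p of 0.0167 and 0.00372. The 7 genes called higher and 0 lower stand beside 11.3% and 11% of all genes. The Psmb6 call was lost in 6 of the alternative settings, among them without IFN2000 replicate 2 (0.11, adjusted p = 0.221) and without IFN200 replicate 1 (0.14, adjusted p = 0.176). Without IFN2000 replicate 2 the other 6 genes were still called, with changes of 1.99 for Psmb8, 2.29 for Psmb9, 1.02 for Psmb10, 0.41 for Psme1, 0.53 for Psme2 and 0.16 for Psmb7 (adjusted p = 0.0269).

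The combinations gave the highest levels of every inducible and PA28 gene. Psmb8 stood at 22.2 and 23.04 CPM in Combo200 and at 39.3 and 38.2 CPM in Combo2000. Psmb9 stood at 39.2 and 39.7 CPM, then 84.4 and 82.8 CPM. Psmb10 stood at 131 and 136 CPM, then 175 and 193 CPM. Each of these libraries lay above every library of the other 4 groups. Psme1 reached 174 and 181 CPM, then 210 and 209 CPM, and Psme2 reached 268 and 272 CPM, then 315 and 321 CPM. For all 5 genes the group means ran in the order Ctrl, IFN200, Oxali, IFN2000, Combo200 and Combo2000, with no overlap between neighbouring groups. How many of all genes show such an order was not counted. By the difference in CPM the closest neighbours were IFN200 and Oxali for Psmb9, with means of 2.69 ± 0.189 and 3.24 ± 0.279 CPM (SD, n = 2), a difference that was not tested. Relative to their level other neighbours were closer, such as Ctrl and IFN200 for Psme2, with means of 102 and 116 CPM.

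Against Ctrl, the log2 changes in Combo200 and Combo2000 were 6.70 (SE 0.20) and 7.48 (0.18) for Psmb8, 7.05 (0.15) and 8.14 (0.13) for Psmb9, and 2.17 (0.056) and 2.63 (0.055) for Psmb10. Those of Psme1 were 1.22 and 1.46, and those of Psme2 were 1.40 and 1.64. From the counts alone, Combo2000 was 183 times Ctrl for Psmb8 (95% interval 92.7 to 424) and 287 times for Psmb9 (160 to 575). The 5 genes called higher at each dose stand beside 35.6% of all genes in Combo200 and 35.7% in Combo2000.

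Of the constitutive genes, Psmb7 stood at 65.1 and 65.5 CPM in Combo200 and 63.9 and 64.7 CPM in Combo2000, with log2 changes against Ctrl of -0.71 (SE 0.041) and -0.73 (0.041). Psmb6 stood at 78.3 and 80.4 CPM, then 79.9 and 84.7 CPM, with changes of -0.26 (0.052) and -0.21 (0.052). Psmb5 stood at 20.2 and 22.0 CPM, then 19.8 and 23.6 CPM. Its changes were -0.21 (adjusted p = 0.0356) and -0.18 (adjusted p = 0.0641), so 3 constitutive genes were called lower in Combo200 and 2 in Combo2000, beside 33.1% and 33.5% of all genes. Across the settings the Psmb5 call moved both ways: in Combo200 it was lost with upper-quartile scaling (adjusted p = 0.0805), with DESeq2 (0.0722), without Ctrl replicate 1 (adjusted p = 0.0641), without Ctrl replicate 2 (0.140) and without Combo200 replicate 2 (0.204), and in Combo2000 it was made, among other settings, with the reads of Gm3375 added (-0.28, adjusted p = 5.47e-04) and without Combo2000 replicate 3 (-0.31, adjusted p = 0.00671).

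Adding IFNγ to Oxali raised only the inducible and PA28 genes among the 8 in this test. Against Oxali, Psmb8 changed by 2.80 (SE 0.11) in Combo200 and 3.58 (0.10) in Combo2000, Psmb9 by 3.61 (0.091) and 4.69 (0.082), and Psmb10 by 1.42 (0.051) and 1.88 (0.050). Psme1 changed by 0.76 and 1.00, and Psme2 by 0.91 and 1.14. These 5 calls stand beside 1.58% of all genes called higher in Combo200 and 3.37% in Combo2000. The constitutive genes were not called, beside 0.25% and 0.987% of all genes called lower. Psmb7 changed by 0.11 (approximate 95% interval 0.030 to 0.20, adjusted p = 0.288) and 0.090 (0.0070 to 0.17, adjusted p = 0.326).

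Adding Oxali to IFNγ moved all 8 genes. At 200 pg the log2 changes of Combo200 against IFN200 were 4.17 for Psmb8, 3.87 for Psmb9, 1.94 for Psmb10, 1.02 for Psme1 and 1.22 for Psme2, and at 2000 pg they were 2.78, 2.59, 1.34, 0.79 and 0.90. Psmb7 changed by -0.75 and -0.95, Psmb6 by -0.31 and -0.43, and Psmb5 by -0.21 and -0.27. The 5 genes called higher and 3 called lower stand beside 36.5% and 33.5% of all genes at 200 pg and 38.5% and 33.8% at 2000 pg. The Psmb5 call at 200 pg was lost with upper-quartile scaling or DESeq2 and without IFN200 replicate 2 (adjusted p = 0.213) or Combo200 replicate 2 (0.184), and that at 2000 pg without IFN2000 replicate 2 (0.0632) or Combo2000 replicate 2 (0.168). Without IFN2000 replicate 2 the changes at 2000 pg were 2.96, 2.66, 1.38, 0.85 and 0.92 for the 5 inducible and PA28 genes in the same order, -0.94 for Psmb7 and -0.37 for Psmb6, all still called. Between the 2 combinations, the higher IFNγ dose gave changes of 0.78 for Psmb8, 1.08 for Psmb9, 0.46 for Psmb10 and 0.24 for each of Psme1 and Psme2, where 1.21% of all genes were called higher and 0.167% lower. The Psme1 call was lost without Combo200 replicate 2 (0.21, adjusted p = 0.0804), and no constitutive gene was called.

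The 3 pairs of inducible and constitutive subunits started from different ratios and did not cross parity together. The ratio of Psmb10 to Psmb7 read counts was 0.271 and 0.284 in the untreated libraries, and IFNγ alone took it to 0.309 and 0.324 at 200 pg and to 0.601 and 0.572 at 2000 pg. The Oxali libraries gave 0.794 and 0.858, the Combo200 libraries 2.01 and 2.07 and the Combo2000 libraries 2.74 and 2.98. This was the pair whose ratio was higher in both Oxali libraries than in both IFN2000 libraries. As a share of the pair's reads, Psmb10 rose from 21.7 ± 0.555% in Ctrl to 74.1 ± 1.14% in Combo2000 (SD, n = 2).

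The ratio of Psmb8 to Psmb5 counts was 0.00920 and 0.00820 in the untreated libraries, 0.0611 and 0.0414 with 200 pg of IFNγ and 0.231 and 0.200 with 2000 pg. It was 0.145 and 0.171 with Oxali alone, and the combinations brought it to 1.09 and 1.05 at the lower IFNγ dose and to 1.99 and 1.62 at the higher. With the reads of Gm3375 added to Psmb5 the Combo2000 ratios were 0.993 and 0.876, so whether this pair passed parity depends on where the reads of the near copy belong. The ratio of Psmb9 to Psmb6 counts was 0.00411 and 0.00211 in the untreated libraries, 0.0267 and 0.0279 with 200 pg of IFNγ and 0.125 and 0.124 with 2000 pg. Oxali alone gave 0.0376 and 0.0459, Combo200 gave 0.501 and 0.494, and Combo2000 gave 1.06 and 0.977. The share of Psmb9 in its pair was 50.4 ± 1.37% in Combo2000, against 0.310 ± 0.141% in Ctrl.

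**Figure D2:**
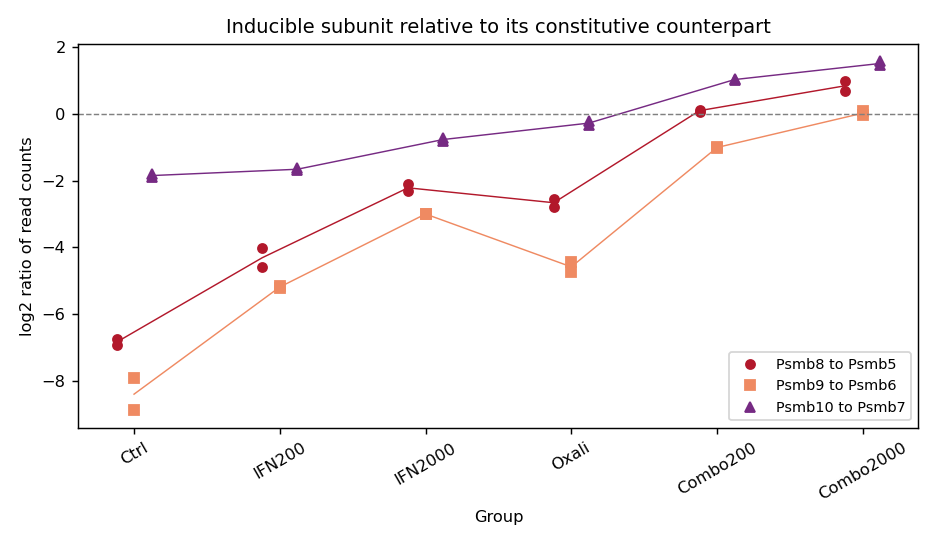
Log2 ratio of the read counts of each inducible subunit to its constitutive counterpart, with a point for each of the 12 libraries and a line through the group means; the dashed line marks equal counts. The Psmb10 to Psmb7 ratio starts at -1.85 in Ctrl and passes 0 in both combinations, and the Psmb9 to Psmb6 ratio starts at -8.41 and reaches 0.022 in Combo2000.

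Read counts of different genes depend on transcript length. Per kilobase of exon, the inducible gene stood above its counterpart in 8 of the 36 values of pair and library, all of Psmb10 to Psmb7: the libraries of IFN2000, Oxali and both combinations. With the lengths of the principal transcripts the count was 5 and came from other libraries: the 4 combination libraries for Psmb10 to Psmb7 and Combo2000 replicate 2 for Psmb8 to Psmb5.

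In a fit with the constitutive partner as the scale, the log2 change of the Psmb8 to Psmb5 ratio against Ctrl was 2.52 (SE 0.46) and 4.60 (0.34) at the 2 IFNγ doses, 4.15 (0.37) with Oxali, and 6.91 (0.27) and 7.66 (0.25) in the combinations. In the same order the Psmb9 to Psmb6 ratio changed by 3.14 (0.31), 5.32 (0.22), 3.74 (0.29), 7.32 (0.18) and 8.35 (0.16). The ratio of Psmb10 to Psmb7 changed by 0.19 (0.068), 1.08 (0.063), 1.57 (0.065), 2.88 (0.060) and 3.36 (0.059). All were called but the Psmb10 to Psmb7 change in IFN200 (adjusted p = 0.321). The Psmb8 to Psmb5 call in IFN200 was lost without Ctrl replicate 2 (adjusted p = 0.0591) and without IFN200 replicate 1 (0.0649). Without IFN2000 replicate 2 the changes in IFN2000 were 4.49 for Psmb8 to Psmb5, 5.32 for Psmb9 to Psmb6 and 1.04 for Psmb10 to Psmb7, and all 3 were still called.

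The share of all genes whose ratio to the same partner was called sets these calls in proportion. Scaled to Psmb5, Psmb6 and Psmb7 it was 0.129%, 0.0759% and 0.152% in IFN200 and 3.34%, 40.7% and 52% in IFN2000. In Oxali it was 55.2%, 65% and 87%, in Combo200 55%, 65.1% and 84.4%, and in Combo2000 54.6%, 64.1% and 85.2%. A call of the ratio to Psmb7 in the Oxali groups was therefore shared with most genes, and the size of the change carries more than the call. In the fit scaled to Psmb5 the spread was estimated as common to all genes, so its p-values carry no gene's own spread.

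The 2 PA28 genes lay above Ctrl together in every treated group, and the ratio of Psme1 to Psme2 was lower in the combinations. Psme1 counts were 0.709 and 0.779 times those of Psme2 in Ctrl and between 0.650 and 0.666 in the 4 combination libraries, below the lowest single-treatment value of 0.695. On the log2 scale the ratio was -0.43 ± 0.095 in Ctrl, -0.46 ± 0.055 in Oxali, -0.50 ± 0.037 in IFN2000 and -0.60 ± 0.024 in each combination (SD, n = 2). In a fit with Psme2 as the scale, the Psme1 ratio changed against Ctrl by -0.18 (SE 0.062, adjusted p = 0.00785) in Combo200 and by -0.18 (0.061, adjusted p = 0.00792) in Combo2000. The changes of 0.024 in IFN200, -0.071 in IFN2000 and -0.034 in Oxali were not called. In the order IFN200, IFN2000, Oxali, Combo200 and Combo2000, the share of all genes whose ratio to Psme2 was called was 41.9%, 85.8%, 75.6%, 90.2% and 91.9%. Both calls were lost without Ctrl replicate 2 (adjusted p = 0.125 and 0.127), that in Combo200 without Combo200 replicate 2 (0.0580) and that in Combo2000 without Combo2000 replicate 3 (0.0527). Psme2b, a gene that matched Psme2 in 99.4% of 794 aligned bases, held 0.863 to 1.34% of the Psme2 count. Psme3, which encodes the PA28 gamma activator found in the nucleus, went the other way from Psme1 and Psme2 in Oxali: 277 and 257 CPM against 371 and 388 CPM in Ctrl, a log2 change of -0.51 (SE 0.041, adjusted p = 1.58e-09).

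Whether the 2 treatments together gave more than their separate effects was tested as an interaction, the log2 change of the combination beyond the sum of the 2 single log2 changes. At 200 pg it was 1.18 (SE 0.083, adjusted p = 4.37e-08) for Psmb10, 0.56 (0.065, adjusted p = 4.01e-05) for Psme1 and 0.73 (0.060, adjusted p = 3.74e-07) for Psme2. At 2000 pg it was 0.58 (0.079, adjusted p = 1.70e-04), 0.33 (0.064, adjusted p = 0.00581) and 0.41 (0.059, adjusted p = 3.92e-04). Without IFN2000 replicate 2 the values at 2000 pg were 0.62, 0.39 and 0.43, and all 3 were still called. These 3 genes of the 8 were called at each dose, where 0.562% of all genes were called higher and 0.137% lower at 200 pg, and 2.12% and 0.6% at 2000 pg.

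Psmb8 and Psmb9, the genes with the largest changes, were not called in the interaction test. Psmb8 gave 0.28 (approximate 95% interval -0.89 to 1.45) at 200 pg and -1.11 (-1.97 to -0.26, adjusted p = 0.194) at 2000 pg. Psmb9 gave 0.42 (-0.45 to 1.304) and -0.86 (-1.56 to -0.15, adjusted p = 0.255). Without IFN2000 replicate 2 the values at 2000 pg were -0.93 for Psmb8 and -0.79 for Psmb9, and 0.75 for the Psmb10 to Psmb7 ratio. The Ctrl libraries held 4 to 7 counts of these genes, and without Ctrl replicate 1 the Psmb9 estimate at 200 pg was -0.095. No constitutive gene was called, with estimates from -0.14 to 0.067, except that without IFN2000 replicate 3 Psmb6 was called at 2000 pg (-0.23, adjusted p = 0.0444). The interaction of the Psmb10 to Psmb7 ratio was 1.12 (SE 0.088, adjusted p = 3.43e-08) at 200 pg and 0.71 (0.084, adjusted p = 7.20e-06) at 2000 pg, where 0.615% and 13.1% of all ratios to Psmb7 were called. Those of Psmb8 to Psmb5 (0.24 and -1.09) and Psmb9 to Psmb6 (0.44 and -0.71) were not called, where 0.342% and 0.577% of the ratios to Psmb5 and 0.311% and 1.75% of those to Psmb6 were.

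The combinations were also set beside the sum of the single effects on the CPM scale. The sum of the single effects is the Ctrl level plus the 2 single differences from Ctrl. For Psmb9 it was 5.64 CPM at 200 pg and 16.8 CPM at 2000 pg, and the combination means were 7.003 and 4.97 times as high. For Psmb8 the combination means were 5.29 and 4.48 times the sum, for Psmb10 2.42 and 1.98 times, for Psme1 1.53 and 1.40 times and for Psme2 1.72 and 1.499 times. Both combination libraries lay above the sum in all 10 cases, a description with no test and with no share over all genes beside it. Psmb5, Psmb6 and Psmb7 lay at 1.03, 0.981 and 1.02 times the sum at 200 pg and at 0.983, 0.880 and 0.829 times at 2000 pg. For Psmb7 at 200 pg both combination libraries also lay above the sum.

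**Figure D3:**
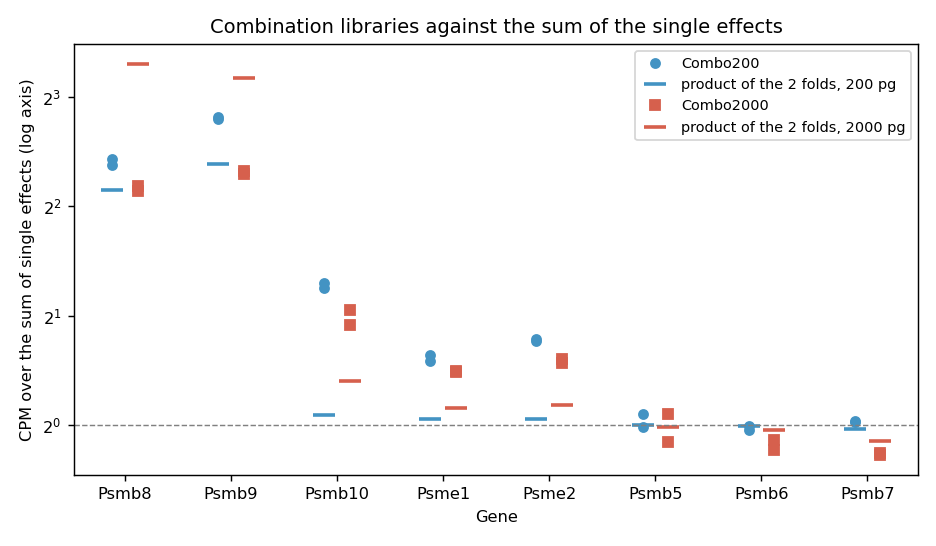
CPM of each combination library divided by the sum of the single effects (log axis, dashed line at 1), with circles for Combo200, squares for Combo2000 and bars for the level that the product of the 2 single folds would give. All 5 inducible and PA28 genes lie above 1 at both doses, and at 2000 pg Psmb8 and Psmb9 lie below the bar while Psmb10, Psme1 and Psme2 lie above it.

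Against Ctrl, most of the rest of the proteasome moved in the direction of the constitutive subunits. In Oxali all 11 other genes of the 20S core were lower than in Ctrl, with a median log2 change of -0.64, and all 18 genes of the 19S regulator, the cap that receives ubiquitinated proteins, were lower with a median of -0.58. Of all genes tested 32.8% were called lower, and the median change over all of them, called or not, was 0.017. The largest falls were Psma5 (-1.33), which encodes an alpha ring subunit, and Psmd3 (-1.18) and Psmd1 (-1.04) of the 19S cap, each larger than that of Psmb7. The same counts, 11 of 11 and 18 of 18 lower, were found in Combo200 and in Combo2000, with medians of -0.50 and -0.55, then -0.48 and -0.54, beside 33.1% and 33.5% of all genes called lower. Against Oxali, 3 of the 11 core genes were called higher in Combo200 and 7 in Combo2000 (medians 0.12 and 0.21). These stand beside 1.58% and 3.37% of all genes, and Psmb5, Psmb6 and Psmb7 were not called there. Of the 18 cap genes, 0 and 2 were called higher.

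Of 11 genes of assembly and other activators, 7 were lower in Oxali, where 32.8% of all genes were, and Pomp, the assembly chaperone of the core, changed by -0.56 (SE 0.051). Psme4, which encodes the activator PA200, changed by -0.064 (adjusted p = 0.256). Nfe2l1, the transcription factor that restores proteasome genes when the proteasome is impaired, was slightly higher (0.12, SE 0.037), and the 3 other genes of that control list, Ddi2, Ngly1 and Nfe2l2, were lower. In Combo2000, 7 of the 11 assembly and activator genes were called lower and 1, Psmg4, higher (0.56 against Ctrl), beside 33.5% and 35.7% of all genes. With 2000 pg of IFNγ, 9 of 11 core genes and 12 of 18 cap genes were called higher with medians of 0.19 and 0.14, below the changes of Psmb6 and Psmb7, beside 8.39% of all genes called higher. Without IFN2000 replicate 2 fewer core and cap genes were called higher, as were fewer of all genes, with medians of 0.15 and 0.10. That fit leaves 1 library in the group. With 200 pg none of these 29 genes was called, where 0.114% of all genes were called higher. The tissue-restricted core genes Psma8 and Psmb11 did not pass the filter.

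**Figure D4:**
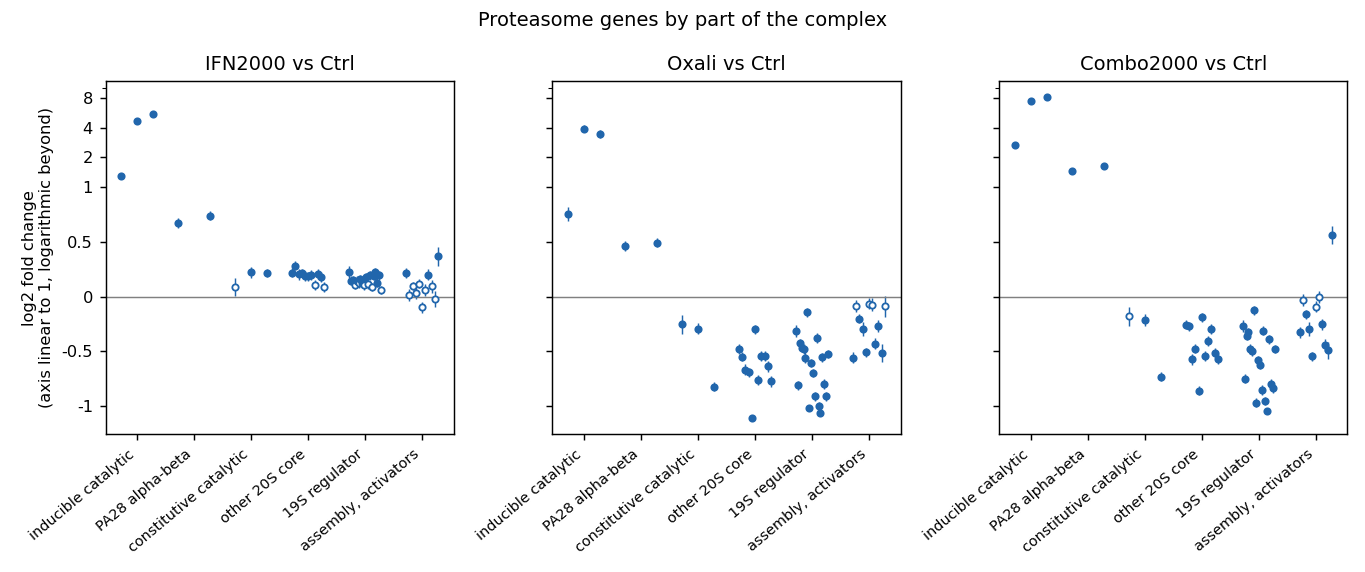
Log2 fold change against Ctrl with its standard error for each tested proteasome gene, by part of the complex, in IFN2000, Oxali and Combo2000 (axis linear up to 1 and logarithmic beyond); filled points were called at an adjusted p under 0.05. In Oxali and Combo2000 the inducible and PA28 genes lie above 0, while all genes of the 20S core and the 19S regulator lie below it.

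The antigen processing genes that IFNγ is known to induce gave 7 higher and 1 lower of 9 in Oxali, 9 higher in IFN2000 (8 without IFN2000 replicate 2) and 8 higher and 1 lower in Combo2000. The shares of all genes called higher and lower were 34.8% and 32.8% in Oxali, 8.39% and 8.47% in IFN2000, and 35.7% and 33.5% in Combo2000. In Oxali the log2 changes were 2.38 for Tap2 and 2.23 for Tap1, the subunits of the peptide transporter, and 1.33 for Irf1, a transcription factor of the interferon response. Nlrc5, the MHC class I transactivator, was called in IFN2000 and both combinations. In Oxali it was not called, at a log2 change of 1.07 (SE 1.17, adjusted p = 0.432). No Oxali library held more than 3 reads of Nlrc5, and no Ctrl library more than 2. So few reads cannot show whether Oxali changed Nlrc5. By qRT-PCR the study reports induction of Nlrc5 by Oxali. The interaction was called higher for 7 of the 9 genes at 200 pg and 5 of the 9 at 2000 pg, beside 0.562% and 2.12% of all genes. That of Irf1 was 1.17 at 200 pg and 0.88 at 2000 pg, both called. Tap1 (1.52, then 0.21 with adjusted p = 0.748) and Tap2 (0.74, then 0.32 with adjusted p = 0.213) were called at 200 pg and not at 2000 pg. Nlrc5 was called at neither dose (adjusted p = 0.580 and 0.684).

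Across the 12 libraries the levels most like those of each gene were ranked by Pearson's r of log2 CPM, as a description, since the libraries share groups. The closest to Psmb8 was Tap1 (r = 0.986) and to Psmb9 Ifi47 (0.988), followed by Irgm2 and Tap1. Psmb10, Psme1 and Psme2 lay closest to one another, with Psme2 first for Psmb10 (0.997). The constitutive genes had other neighbours: Micos13 for Psmb5 (0.960), Atp23 for Psmb6 (0.990) and Eif4a1 for Psmb7 (0.998). No gene of the 8 was among the 3 closest to a constitutive subunit.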

How the data were processed

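Poly(A) RNA of 12 Myc-CaP libraries was sequenced with a stranded kit. The authors aligned reads to GRCm38 with STAR 2.7.3a and deposited raw counts per gene from featureCounts over GENCODE annotation, and the labels also name RSEM 1.3.0. No column was left unmapped. Here the counts were tested with edgeR 4.0.16 (R 4.3.3): TMM scaling, a filter on low counts (minimum 10, minimum total 15), a quasi-likelihood fit over all 12 libraries with a mean per group, 13 contrasts, and Benjamini-Hochberg adjustment over 13177 genes, called at an adjusted p under 0.05. An exact permutation test of 2 against 2 libraries cannot go below p = 0.333. Pair ratios were fitted on the same table with the partner's count as library size. CPM values use TMM. The fit was also tried on simulated data with the same fixed spread for every gene. Changes were planted only in genes with far more counts than Psmb8 and Psmb9 had in Ctrl, so that trial does not cover them.

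The members and gene lists were chosen with earlier results of these data known. Besides the members, a comparison with Ctrl in Oxali, IFN2000 or Combo2000 names up to 3 genes of the lists with the largest called rises and falls, with Psme3, Psme4, Pomp, Nfe2l1 and the interferon genes always available. Some genes that this rule or the marker lists hold are not reported here. Gene positions and lengths come from GENCODE on GRCm38, promoter windows from RefSeq (GRCm38.p6), where Psmb7 had no entry. B cell and macrophage markers were also counted: they summed to 0 to 1 and 235 to 448 counts a library. Cd14 gave most of the macrophage sum (225 to 409 counts a library), while Adgre1, Itgam, C1qa and Itgax had 0 counts in all 12 libraries. Alternatives were DESeq2 1.42.0, upper-quartile and RLE scaling, other filters, a length and GC correction, a replicate block, and leaving out each library.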

Additional observations from a re-analysis of the deposited data

Results flagged for a closer look

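The response to IFNγ differed between cells with and without Oxali, by the interaction test, for 3 genes and 1 pair ratio at both doses. At 200 pg the log2 interaction was 1.18 for Psmb10, 0.56 for Psme1, 0.73 for Psme2 and 1.12 for the Psmb10 to Psmb7 ratio. At 2000 pg it was 0.58, 0.33, 0.41 and 0.71 in the same order. Leaving out each library in turn gave 1.16 to 1.21 for Psmb10 at 200 pg and 0.51 to 0.65 at 2000 pg.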

How the results depend on the processing

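No called result changed direction. Of 546 counts of called genes or ratios, 540 stayed within 1.5 times, and of 3070 single changes 33 lost and 10 gained a call, mostly of Psmb5 and Psmb6. Without single libraries, the members called in IFN200 against Ctrl numbered 1 to 2, against 2 with all libraries (3 with no filter or with a length and GC correction), and the pair ratios called 1 to 2. With principal transcript lengths, chosen after seeing the data, 5 rather than 8 values per library lay above parity. Same-numbered replicates of different groups did not deviate together (r of -0.046 to 0.017 over 6 pairs of groups), so the numbers were not used as pairing. With the replicate block, 2 members were called for the lower IFNγ dose against Ctrl, 7 for the higher, 8 for Oxali and 3 in each interaction, and Psmb6 in IFN2000 against IFN200 was not called (0.18, adjusted p = 0.0774). Low depth limits Psmb8 and Psmb9 in Ctrl, where 3 counts equal 0.152 to 0.167 CPM.

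A sign turned in 38 of the single changes, all of results that were not called, and the cause was not tested. For Psmb5, these were -0.0010 in IFN200 against Ctrl with no filter and -0.055 with Gm3375 added, and -0.072 in Combo2000 against Combo200 with Gm3375 added. With the replicate block Psmb5 gave -0.0083 in Combo200 against Oxali and -0.012 in the interaction at 200 pg. With the replicate block and a length and GC correction Psmb5 gave -0.019 in IFN2000 against Ctrl, -0.022 and -0.0061 in the lower and higher combination against Oxali, -0.035 in IFN2000 against IFN200, and -0.038 and 0.013 in the interactions. With the length and GC correction alone it gave 0.013 in the interaction at 2000 pg. For Psmb6 in Combo200 against Oxali the values were -0.018 with that correction and -0.016 with the replicate block as well. Leaving out single libraries gave, for Psmb5, -0.062 to 0.066 in IFN200 against Ctrl, -0.020 to 0.10 and -0.053 to 0.20 in the lower and higher combination against Oxali, -0.098 to 0.16 between the combinations, and -0.024 to 0.11 and -0.14 to 0.11 in the interactions. For Psmb6 it gave -0.026 to 0.086 in Combo200 against Oxali and -0.072 to 0.040 in the interaction at 200 pg. In the same interaction it gave -0.095 to 0.83 for Psmb9, -0.024 to 0.54 for Psmb8 to Psmb5 and -0.080 to 0.86 for Psmb9 to Psmb6. For Psme1 to Psme2 it gave -0.042 to 0.093 in IFN200 and -0.0997 to 0.035 in Oxali, both against Ctrl.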

Other observations

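The share of Psmb8 in the summed reads of Psmb8 and Psmb9, a pair chosen here after its values were seen, is given by library, with intervals that cover counting error only. In Oxali, Psmb8 made up 50.4% and 49.7% (exact 95% binomial intervals 41.6 to 59.2% and 41.2 to 58.1%). In IFN2000 it made up 30.2% and 27.3% (26.1 to 34.5% and 23.1 to 32.0%), and in Combo2000 31.8% and 31.6% (30.2 to 33.4% and 29.9 to 33.4%). In Ctrl, 4 of 11 reads and 4 of 8 reads were of Psmb8, too few to place it between them. The difference between treatments was not tested.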
